A study of Mus musculus with 4 samples.

Results

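The miR-34 family was followed through 4 small RNA libraries of primary fibroblasts that had been cultured from mouse embryos (MEFs). Its members were taken by name, as every row of the deposited count files that starts with mmu-miR-34a, mmu-miR-34b or mmu-miR-34c. That gave 5 of the 508 endogenous microRNAs listed in at least 1 library: mmu-miR-34a, mmu-miR-34b-5p, mmu-miR-34b-3p, mmu-miR-34c and mmu-miR-34c*, the star marking the arm named as the passenger strand. No row for the other arm of the miR-34a hairpin was among the rows matched. All 5 passed the floor on low values that is defined below, as did 372 microRNAs in all.

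Every culture carried shLuc.1309, which encodes a short hairpin RNA (shRNA) that targets luciferase, a reporter gene absent from mice. Per the titles, a pair of libraries came from cells with the hairpin alone (no rtTA), without and with doxycycline (-dox, +dox), and a pair from cells that also carried ROSA-rtTA (rtTA), again without and with doxycycline. rtTA is the reverse tetracycline transactivator, which activates tetracycline-responsive promoters only while dox is bound, and ROSA refers to the broadly active Rosa26 locus. Each of the 4 groups is 1 library, so no difference has a replicate check, and each value compares libraries rather than conditions. The labels state 24 degrees C for growth and name no passage number, dox dose or time of exposure.

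The libraries held 6383594 to 8780954 counts. The shRNA row made up 0.0725% to 0.0786% of all counts in 3 libraries and 2.38% in rtTA cells with dox, and it was left out of the scaling to counts per 1000000 endogenous counts (CPM). Of the 7 markers of fibroblasts and mesenchyme fixed by name, 6 were listed, with a summed level of 409669 to 423989 CPM. Markers of other cells were low. The epithelial list (6 of 6 listed, 0 past the floor) summed to 4.86 to 17.4 CPM, the blood list (5 of 5) to 51.5 to 81.9 CPM, the muscle list (4 of 4) to 246 to 592 CPM and the neuronal list (4 of 4) to 413 to 617 CPM. Liver (1 of 1) was at 2.51 to 3.99 CPM, the endothelial list (2 of 2) at 119.6 to 175 CPM and the pluripotent list (4 of 7 listed) at 0.306 to 0.666 CPM. Muscle and neuronal markers were highest in rtTA cells with dox, and their part in the results below was not tested.

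MicroRNAs pair with messenger RNAs mainly through the seed, bases 2 to 8 from the 5′ end, and lower their stability and translation. The tumour suppressor p53 binds the promoters of the miR-34a gene and of the gene that yields miR-34b and miR-34c, and their products restrain cell cycle regulators such as Cdk6, E2F3, Ccnd1 and Myc, as well as Bcl2. In embryonic fibroblasts the family is known to rise with DNA damage and with the senescence of cultured cells. In adult tissue miR-34b and miR-34c are best known from multiciliated epithelium and testis, where they occur beside the miR-449 family.

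The 5 mature sequences fall into 2 seed classes, shown here as deposited with the seed in capitals, because both the targets and the counting depend on them.
miR-34a: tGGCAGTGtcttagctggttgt
miR-34c: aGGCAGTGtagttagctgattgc
miR-34b-5p: aGGCAGTGtaattagctgattgt
miR-34b-3p: aATCACTAactccactgccatc
miR-34c*: aATCACTAaccacacagccagg

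The first 3 share the seed that defines the family, and the 3p arms share another. miR-34c and miR-34b-5p differ at only 2 positions, counted from 1 at the 5′ end (G11A and C23T, miR-34c first), so reads could have been assigned to either. Their counts are therefore uncertain between copies, since no source used here gives the rule for reads that fit several microRNAs. miR-34b-3p and miR-34c* differ at 5 positions (T11C, C12A, T16A, T21G and C22G, miR-34b-3p first). No other listed microRNA of equal length lay within 4 mismatches of a member.

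The sequences matched RefSeq hairpins on build GRCm38.p6. Mature miR-34a lies on the plus strand at chr4:150068473-150068494 and overlaps no other gene of GENCODE M21. The other hairpins lie 451 bases apart on the minus strand of chromosome 9, opposite to Btg4 and within an intron of it. Their RefSeq sequences, with the mature arms in capitals, show how each 5p arm faces the 3p arm that is compared with it below.
Mir34b (chr9:51103562-51103645): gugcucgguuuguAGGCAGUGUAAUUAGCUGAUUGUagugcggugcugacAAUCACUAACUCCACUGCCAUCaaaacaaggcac
Mir34c (chr9:51103034-51103110): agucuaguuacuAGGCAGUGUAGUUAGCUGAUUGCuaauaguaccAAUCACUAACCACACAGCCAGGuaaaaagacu

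G is common in the 5p arms and rare in the 3p arms. It makes up 36.4% of miR-34a, 34.8% of miR-34c and 30.4% of miR-34b-5p, but 4.55% of miR-34b-3p and 13.6% of miR-34c*. The median over the 372 microRNAs was 23.8% G. C ran the other way in the members, at 40.9% of miR-34b-3p and 36.4% of miR-34c*. It made up 13.6% of miR-34a, 13.0% of miR-34c and 8.70% of miR-34b-5p. A trend on C was not tested. The G percentages matter below because the ratios of the induced library moved with G content.

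miR-34a was the main member in each library. It had 51016 counts or 7998 CPM without rtTA and dox, 49768 counts or 7610 CPM without rtTA and with dox, 62031 counts or 7070 CPM in rtTA cells without dox, and 57108 counts or 7606 CPM in rtTA cells with dox. Among all listed rows it ranked 23, 25, 25 and 29 in that order. The highest library was 1.13-fold above the lowest. The dox-treated libraries did not differ beyond counting error (95% interval of the ratio 0.988 to 1.01); the other neighbours in the order differed beyond counting error, by 1.05-fold and 1.08-fold.

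miR-34c came next and varied more. Its level was 2096 CPM (13368 counts) in cells with neither rtTA nor dox, 1527 CPM (9987 counts) with dox alone, 1360 CPM (11932 counts) with rtTA alone and 2031 CPM (15245 counts) with rtTA and dox. The library with neither and the library with both were thus high, 1.03-fold apart (1.01 to 1.06), and the remaining pair was low. The highest was 1.54-fold above the lowest.

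miR-34b-5p, from the same cluster, followed another order. It was at 843 CPM (5378 counts) and 817 CPM (5344 counts) without rtTA, -dox and +dox, at 504 CPM (4419 counts) with rtTA alone and at 650 CPM (4883 counts) with rtTA and dox. The libraries without rtTA did not differ beyond counting error (1.03-fold, 0.993 to 1.07) and lay above both rtTA libraries. Its span was 1.67-fold.

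The 3p arms were rare, and both were lowest in rtTA cells with dox. miR-34b-3p was at 40.8, 45.7 and 36.9 CPM (260, 299 and 324 counts) in the libraries with neither, with dox alone and with rtTA alone, and at 16.9 CPM (127 counts) with both. miR-34c* was at 24.6, 20.03 and 19.7 CPM (157, 131 and 173 counts) in the same order, and at 10.4 CPM (78 counts) with both. For either arm the first 3 libraries did not differ between neighbours in the order beyond counting error. For miR-34b-3p the ends of these 3, at 45.7 and 36.9 CPM, were not compared directly. The induced library lay below the next lowest by 2.18-fold (1.77 to 2.70, miR-34b-3p) and 1.90-fold (1.44 to 2.51, miR-34c*).

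**Figure D1:**
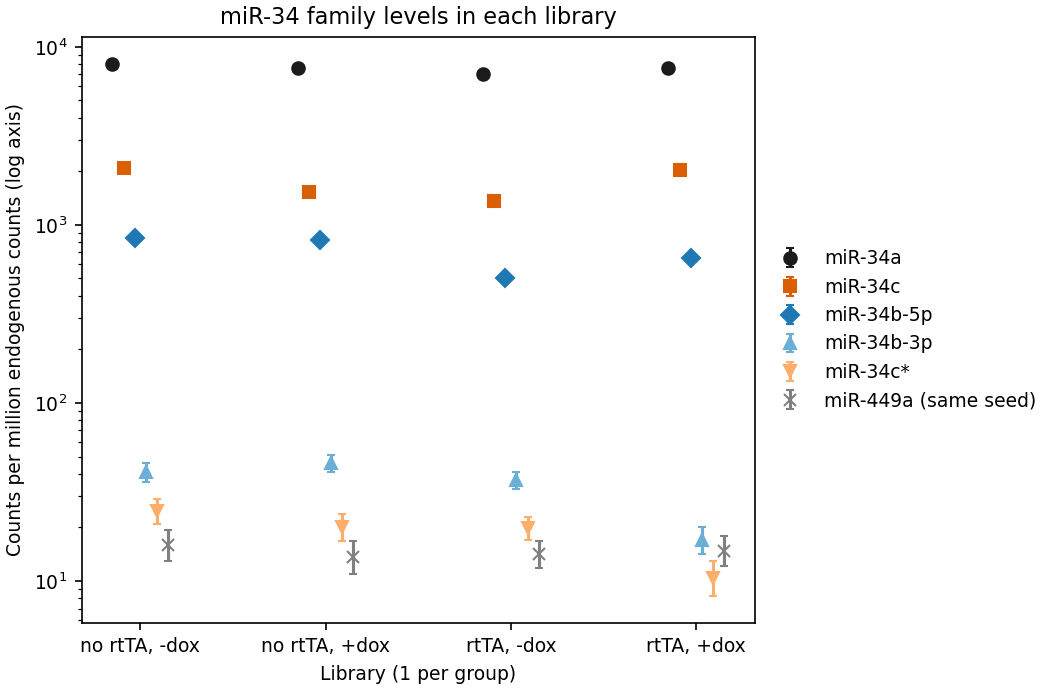
Levels of the 5 family members and of miR-449a, which has the same seed as miR-34a, in the 4 libraries (1 per group). The y axis is CPM on a log scale, and bars are exact Poisson 95% intervals, which cover counting error only. miR-34a stays between 7070 and 7998 CPM, while miR-34b-3p and miR-34c* are lowest in rtTA cells with dox, at 16.9 and 10.4 CPM.

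All listed microRNAs with the family seed were pooled to see what share each takes. Besides the 5p arms of the family these were miR-449a, miR-449b and miR-449c, from a cluster on chromosome 13 for miR-449a and miR-449c. The pool held 10953 CPM with neither rtTA nor dox, 9968 CPM with dox alone, 8949 CPM with rtTA alone and 10302 CPM with both. miR-34a made up 73.0%, 76.3%, 79.0% and 73.8% of it, miR-34c 19.1%, 15.3%, 15.2% and 19.7%, and miR-34b-5p 7.70%, 8.20%, 5.63% and 6.31%. miR-449a was at 13.6 to 15.8 CPM (89 to 124 counts), 0.137% to 0.158% of the pool. miR-449b had 0 to 5 counts and miR-449c 0 to 10, and neither passed the floor. Of the markers of multiciliated epithelium and testis, miR-449a alone was therefore past the floor, at under 20 CPM. The pool was thus almost entirely miR-34, and miR-34c had its larger shares in the libraries with neither rtTA nor dox and with both.

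Ratios between libraries were taken for the 372 microRNAs with a mean of at least 3.14 CPM, which is 20 counts at the depth of the shallowest library. A microRNA was called higher or lower if its CPM differed at least 2-fold and the exact conditional binomial 95% interval of its log2 ratio excluded 0. These intervals cover counting error only, because no group has replicate libraries. PCR copies cannot be recognised without molecular identifiers, so the intervals may be too narrow even for counting error.

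Dox in rtTA cells compares the library with the shRNA switched on with its uninduced counterpart and asks how endogenous microRNAs stand beside an abundant shRNA. The arms of the miR-34b/c hairpins went opposite ways in log2 ratio. The 5p arm of miR-34c was at 0.58 (0.54 to 0.61) and that of miR-34b at 0.37 (0.31 to 0.43), while miR-34b-3p was at -1.13 (-1.43 to -0.83) and miR-34c* at -0.92 (-1.33 to -0.53). miR-34a was at 0.11 (0.09 to 0.12). All 5 intervals excluded 0, as did those of 272 of the 372 microRNAs. Only miR-34b-3p was called, as lower, and no member was called higher. Over all tested microRNAs 8.60% were called lower and 1.34% higher. The member median was 0.11 against -0.06 over all 372. In this comparison miR-34b-3p ranked 23 and miR-34c* 39 from the lowest of the 372 log2 ratios, and miR-34c ranked 329.

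Dox without rtTA gives the same drug with the shRNA not induced (774 CPM with dox, 726 CPM without). No member was called in either direction, against 0.806% higher and 0.806% lower over all microRNAs. miR-34c had the lowest log2 ratio of the family, -0.46 (-0.49 to -0.42), rank 52 from the lowest. miR-34a was at -0.07 (-0.09 to -0.05), and the intervals of miR-34b-5p (-0.05), miR-34b-3p (0.17) and miR-34c* (-0.30) included 0. The member median was -0.07 against -0.04 over all 372.

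rtTA without dox compares the genotypes with the shRNA not induced (786 CPM with rtTA, 726 CPM without). All 5 members had log2 ratios below 0 in the rtTA library, as did 217 of the 372 microRNAs, with a member median of -0.32 against -0.07. miR-34b-5p (-0.74, -0.80 to -0.69) and miR-34c (-0.62, -0.66 to -0.59) were the furthest from 0, at ranks 15 and 23 from the lowest. miR-34a was at -0.18 (-0.19 to -0.16), and the intervals of miR-34b-3p (-0.14) and miR-34c* (-0.32) included 0. None was called at 2-fold, where 1.34% of all microRNAs were called lower and 0.538% higher. At 1.5-fold, miR-34b-5p and miR-34c were called lower, 2 of 5 members against 6.99% of all microRNAs.

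rtTA with dox sets the induced library against dox-treated cells without the transactivator, and, like rtTA without dox, shares a library with each dox comparison. miR-34b-3p was called lower at -1.43 (-1.75 to -1.13), while miR-34c* was at -0.95 (-1.37 to -0.53) and missed the 2-fold limit. Among all microRNAs 14.2% were called lower and 2.42% higher. miR-34b-5p was at -0.33 (-0.39 to -0.27), and miR-34c, from the neighbouring hairpin, was at 0.41 (0.37 to 0.45). For miR-34a no difference was detectable (-0.00064, -0.02 to 0.02). At 1.5-fold miR-34b-3p and miR-34c* were called lower here and with dox in rtTA cells, where 24.2% and 17.7% of all microRNAs were.

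**Figure D2:**
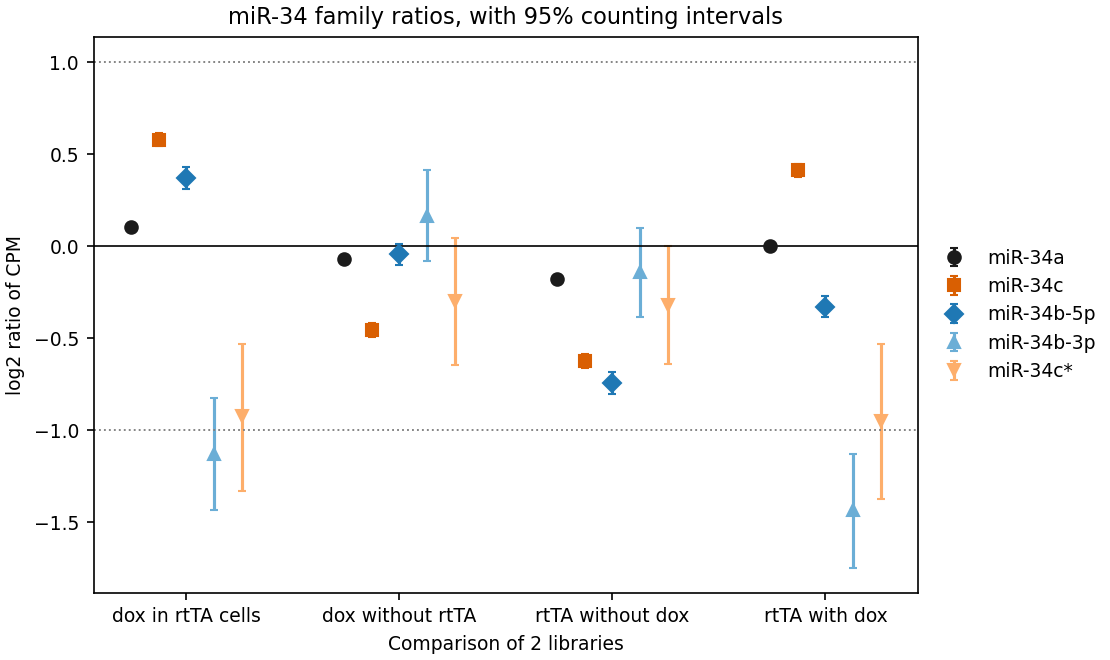
Log2 ratios of CPM for the 5 members in the 4 comparisons, each between 2 libraries. Bars are exact conditional binomial 95% intervals (counting error only), and dotted lines mark a 2-fold difference. The 3p arms lie lowest in the comparisons that hold the induced library (-1.13 and -0.92, -1.43 and -0.95), and all 5 members lie below 0 for rtTA without dox.

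The dox ratios of cells with and without rtTA share no library and were set against each other. miR-34c had a log2 dox ratio 1.03 higher with rtTA than without (delta-method interval 0.98 to 1.09), and miR-34b-3p one that was 1.29 lower (-1.67 to -0.91). These were the members apart by at least 2-fold, against 5.65% (higher with rtTA) and 12.4% (lower) of all microRNAs. miR-34b-5p differed by 0.41, miR-34a by 0.18 and miR-34c* by -0.62. The difference was not tested over replicates, which this design does not have.

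The arms of a hairpin come from the same precursor, and their ratio does not depend on library scaling. In the miR-34b hairpin the 3p arm held 4.61% of the counts of both arms with neither rtTA nor dox (Clopper-Pearson 95% interval 4.08% to 5.19%), 5.30% with dox alone (4.73% to 5.92%), 6.83% with rtTA alone (6.13% to 7.59%) and 2.53% with both (2.12% to 3.01%). In the miR-34c hairpin miR-34c* held 1.16% (0.987% to 1.36%), 1.29% (1.08% to 1.53%), 1.43% (1.23% to 1.66%) and 0.509% (0.403% to 0.635%) in the same order. In both hairpins the share was smallest in the induced library.

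With dox in rtTA cells the log2 odds of the 3p arm were lower by nearly the same amount in each hairpin, at -1.49 (-1.79 to -1.19) for miR-34b and -1.498 (-1.88 to -1.11) for miR-34c. Both were past 2-fold. Across hairpins the odds were taken for the rarer arm, which is the 3p arm in miR-34b and miR-34c but not in every hairpin. Of the 125 hairpins whose arms together reached 20 counts in every library, 16.0% were past 2-fold in this direction. In the other direction 4.00% were past it. miR-34b and miR-34c ranked 13 and 12 from the lowest of those 125. rtTA with dox gave -1.10 (-1.41 to -0.80) and -1.35 (-1.76 to -0.95), where 18.4% of hairpins were called lower and 6.40% higher. Dox without rtTA gave 0.21 (-0.04 to 0.46) and 0.16 (-0.18 to 0.50), with 2.40% of hairpins lower and 3.20% higher. rtTA without dox gave 0.60 (0.36 to 0.84) for miR-34b and 0.30 (-0.01 to 0.62) for miR-34c, with 1.60% lower and 2.40% higher.

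miR-34b and miR-34c are cut from a shared primary transcript, so their proportion was compared as well, once on each arm. miR-34b-5p made up 28.7% of the summed 5p counts with neither rtTA nor dox (28.0% to 29.3%), 34.9% with dox alone (34.1% to 35.6%), 27.0% with rtTA alone (26.3% to 27.7%) and 24.3% with both (23.7% to 24.9%). On the 3p side, with far fewer counts, miR-34b-3p made up 62.4% (57.5% to 67.0%), 69.5% (64.9% to 73.9%), 65.2% (60.8% to 69.4%) and 62.0% (54.9% to 68.6%) of its pair. Dox without rtTA had a log2 odds ratio above 0 on each arm, 0.41 (0.35 to 0.48) for 5p and 0.46 (0.05 to 0.87) for 3p. With dox in rtTA cells it was -0.21 (-0.28 to -0.14) for 5p and -0.20 (-0.69 to 0.28) for 3p, and the latter interval includes 0. rtTA with dox gave -0.74 (-0.81 to -0.67) for 5p and -0.49 (-0.99 to 0.01) for 3p, again with 0 inside the second interval. The miR-34b part was thus largest with dox alone and smallest in the induced library on the 5p side. The 3p values had the same order at these ends, but the 3p interval with dox alone overlapped those of all other libraries. Such overlap is no test of a difference. On the 3p side the direct odds ratio excluded 0 for dox without rtTA and included 0 for rtTA with dox. The lowest 3p shares, 62.0% with both and 62.4% with neither, lay within each other's intervals.

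**Figure D3:**
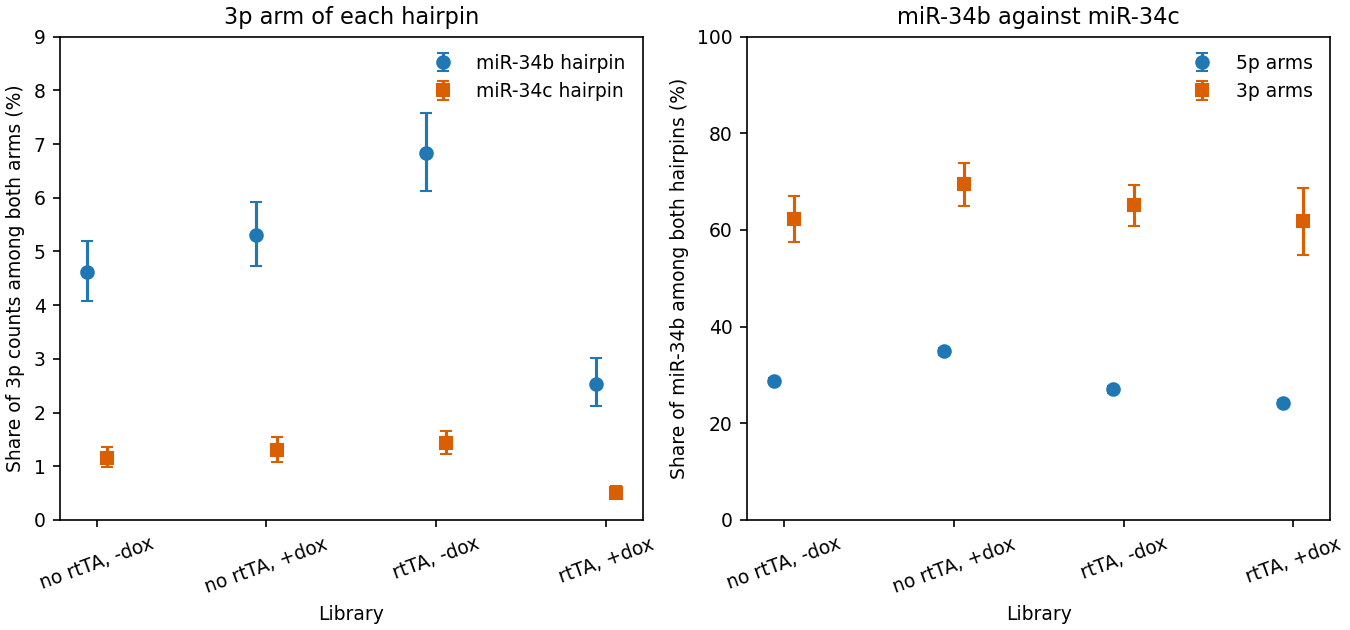
Left, share of the 3p arm among the counts of both arms (%), for the miR-34b and miR-34c hairpins. Right, share of miR-34b among the counts of both hairpins (%), for the 5p and the 3p arms. Points are the 4 libraries, and bars are exact Clopper-Pearson 95% intervals (counting error only). The 3p share is smallest in rtTA cells with dox (2.53% and 0.509%), and the miR-34b share is largest in cells with dox alone (34.9% and 69.5%). For the 3p arms on the right, the interval with dox alone overlaps those of all other libraries, which is no test of a difference.

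Base composition moved with these ratios. Across the 372 microRNAs, which share libraries and are not replicates, the Pearson correlation of the log2 ratio with the percentage of G was 0.72 for dox in rtTA cells and 0.69 for rtTA with dox, but -0.20 for dox without rtTA and -0.0038 for rtTA without dox. For dox in rtTA cells a linear fit on G gave -0.99 at the G content of miR-34b-3p, where -1.13 was measured, and -0.61 at that of miR-34c*, where -0.92 was measured. The fit gave 0.36 for miR-34a (measured 0.11), 0.30 for miR-34c (0.58) and 0.11 for miR-34b-5p (0.37). With the trend subtracted, the log2 ratio of miR-34b-3p was -0.13 and it was no longer called in this comparison, nor, at -0.19, in rtTA with dox; miR-34a turned to -0.26. The shares of arms moved with G too. Over the 125 hairpins the log2 odds ratio of the rarer arm was set against the G content of that arm minus that of the commoner arm. The correlation was 0.66 for dox in rtTA cells. The fitted values there were -0.96 for miR-34b and -0.77 for miR-34c, beside the measured -1.49 and -1.498. For rtTA with dox the correlation was also 0.66. Its fit gave -1.17 for miR-34b (measured -1.10) and -0.96 for miR-34c (measured -1.35). How far G content accounts for the lower 3p arms was not tested.

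The ratios of rtTA without dox had no such trend. With the fit on G subtracted, miR-34b-5p was at -0.67 and miR-34c at -0.55 there, close to the values before. The opposite dox ratios of miR-34c also kept their signs, at 0.28 with rtTA and -0.38 without, although their difference shrank to 0.66 and was then under 2-fold. For the 3p arms the same difference was then -0.12 (-0.50 to 0.26, miR-34b-3p) and 0.08 (-0.43 to 0.59, miR-34c*). It was -0.28 for miR-34a and 0.26 for miR-34b-5p.

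**Figure D4:**
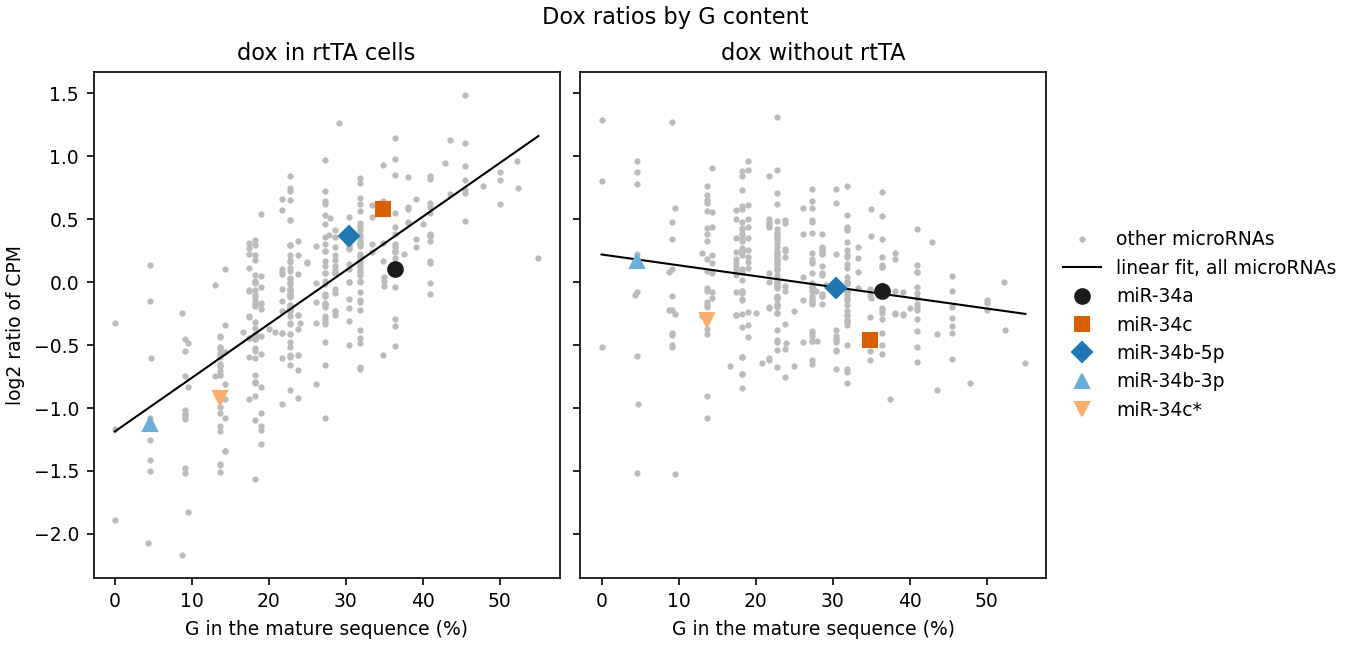
Log2 ratio of CPM against the percentage of G in the mature sequence for dox in rtTA cells (left) and dox without rtTA (right). Grey points are the other microRNAs past the floor, coloured symbols the 5 members and the line a linear fit over all 372. miR-34b-3p and miR-34c*, at 4.55% and 13.6% G, lie low on the left (-1.13 and -0.92) and near the rest on the right (0.17 and -0.30).

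Other microRNAs tied to p53 were taken from a list of 10 names. miR-192, miR-194 and miR-215 are products of p53-responsive genes, as is miR-107, while miR-143, miR-145, miR-15a and miR-16 include ones whose processing p53 promotes, and miR-200c and miR-141 form an epithelial cluster. miR-143 and miR-145 also stand in the fibroblast list, and miR-200c and miR-141 in the epithelial list. All 10 were listed, and 7 passed the floor: miR-215, miR-200c and miR-141 had at most 34 counts in any library. None of the 7 was called in any of the 4 comparisons. Over all 372 microRNAs the share called lower ran from 0.806% (dox without rtTA) to 14.2% (rtTA with dox). The share called higher ran from 0.538% (rtTA without dox) to 2.42% (rtTA with dox). With dox in rtTA cells 6 of 7 lay below 0 (median -0.30), as did 200 of all 372 microRNAs (median -0.06). The 7 ranged from -0.45 for miR-145 to 0.13 for miR-143. Dox without rtTA gave 3 of 7 below 0 (median 0.04) against 201 of 372, with miR-194 lowest at -0.68. rtTA without dox gave 2 of 7 below 0 (median 0.0036), beside 5 of 5 in the miR-34 family and 217 of 372 over all. The interval excluded 0 there for 5 of the 7, for 3 of the 5 members and for 241 of the 372. rtTA with dox gave 5 of 7 below 0 (median -0.26) against 207 of 372, and miR-194 was at 0.48.

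The microRNAs outside the family whose levels followed each member most closely over the 4 libraries were found by the root mean square (RMS) difference of centred log2 CPM. For miR-34a these were miR-467c (0.021) and miR-106b (0.039), and for miR-34b-5p miR-720 (0.0096) and miR-152 (0.074). miR-34c was closest to miR-466h (0.065) and miR-673-3p (0.083), miR-34b-3p to let-7f* (0.12) and miR-582-5p (0.14), and miR-34c* to let-7f* (0.11) and miR-466i (0.12). let-7f* holds 4.55% G, as miR-34b-3p does. Each member had at least 2 microRNAs outside the family nearer to it than any fellow member. The nearest fellow members were miR-34a for miR-34c (0.22) and for miR-34b-5p (0.24), and the 3p arms for each other (0.19). With 4 libraries and 372 candidates such likeness is a description only.

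An additive model over all 4 libraries, with terms for dox and rtTA, was fitted with edgeR's quasi-likelihood test as a secondary analysis. It has 1 residual degree of freedom and a single dox term for both genotypes, although the dox ratios of miR-34c had opposite signs. No member passed an adjusted p of 0.05 for either term, and neither did any other microRNA (0.00% of 372 in each direction). At an unadjusted p under 0.05 edgeR had 11 microRNAs for dox and 25 for rtTA, and DESeq2 11 and 15, with 0 members among them in either tool. The lowest edgeR adjusted p among members was for miR-34b-3p and rtTA, at 0.94 with TMM factors (log2 fold change -0.73) and 0.81 without them (-0.78).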

How the data were processed

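The deposited files hold the authors' whole-number read counts for each microRNA, 1 file per library, with 1 row for the luciferase shRNA; that they are raw counts was read from the values, since the headers name only the library. Not given in the sources used here are the aligner, mismatches allowed, handling of reads that fit several microRNAs, database version and build. Rows absent from a library were set to 0. From the counts, CPM (per 1000000 endogenous counts, shRNA row left out), log2 ratios with exact intervals and arm shares were computed in Python 3.11.15 with scipy 1.17.1. The additive fits used edgeR 4.0.16 (TMM factors, Benjamini-Hochberg adjustment) and DESeq2 1.42.0 in R 4.3.3. The ratios and fits were also run on simulated counts with known changes. For the ratios these held counting error only, and for the fits the same dox change in both genotypes. They cannot show how the intervals or fits behave with the spread between real cultures. Named microRNAs are the members, those with the seed of miR-34a, a list of 10 p53-linked microRNAs and the 2 nearest in profile to each member. The members and lists were chosen with earlier results of these data known. Alternatives were other scalings, floors of 5 counts and none, a 1.5-fold limit, near-identical arms summed and a linear trend on G subtracted. Sequences and positions come from the files and from RefSeq (GRCm38.p6): 4 of the 5 mature sequences matched RefSeq mature entries, and miR-34c was placed within its hairpin.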

Additional observations from a re-analysis of the deposited data

Results flagged for a closer look

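The dox ratio of miR-34c pointed opposite ways in the genotypes. The log2 ratio was 0.58 with rtTA and -0.46 without, a difference of 1.03, with both counting intervals off 0. The same held for miR-34a on a far smaller scale, at 0.11 and -0.07, a difference of 0.18. With 1 library per group neither difference was tested, and with the trend on G subtracted that of miR-34a was -0.28.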

How the results depend on the processing

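With the trend on G subtracted, the number of members called was 0 for dox in rtTA cells (1 before), 0 for rtTA with dox (1 before) and 0 for the dox ratio with against without rtTA (2 before). Over all 372 microRNAs the lower calls fell as well, from 32 to 5 for dox in rtTA cells. For rtTA with dox they fell from 53 to 13. For the dox ratio with against without rtTA the calls over all microRNAs were not counted after the subtraction. Apart from the subtraction itself, the cause was not tested. With a limit of 1.5-fold the number of members called was 2 for dox in rtTA cells, 2 for rtTA without dox (0 at 2-fold) and 2 for rtTA with dox. All were called lower, as were 17.7%, 6.99% and 24.2% of all microRNAs in the same order. Other alternatives left the number of members called at 2-fold as it was wherever they were run. These were TMM, DESeq2 factors, the total with the shRNA and the total without the 10 most abundant microRNAs. The floors of 5 counts and none, and summed near-identical arms, also left it unchanged. Over the 4 scalings and the G trend, 92 of 100 log2 ratios of members kept their sign and their side of the limit, 2 fell under it (miR-34b-3p, -0.13 and -0.19 with the G trend subtracted) and 6 changed sign without being called. No scaling moved all ratios by over 0.1, so the scalings could change little in this count. With the G trend subtracted, miR-34c* was at -0.32 (-0.72 to 0.07) for dox in rtTA cells. It was at -0.17 (-0.59 to 0.25) for rtTA with dox. Both were counted as kept, although these intervals include 0. For rtTA with dox, where miR-34a lay at -0.00064, TMM put it at 0.08. Subtracting the G trend changed the median over the members from 0.11 to -0.13 for dox in rtTA cells. The 3p arms rest on 78 to 324 counts per library, and their counting intervals are wider than those of the 5p arms in all 4 comparisons. The labels give no replicate numbers that could pair libraries; the additive fit, which compares dox within each genotype and rtTA within each dox state, had 0 members past an adjusted p of 0.05 with TMM factors, without factors and in DESeq2.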
